A study of Cicer arietinum with 12 samples.

Results

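CAHDZ12, listed as LOC101509884 in the count files, is a chickpea (Cicer arietinum) gene of the homeodomain-leucine zipper family, and it is 1 of 27234 features counted in leaf RNA of 12 libraries. It was chosen by its gene identifier and with its drought values in these libraries known, so its levels and its difference between treatments are given as a description, with no test. The plants were the genotypes ICC283, which the labels call drought sensitive, and ICC8261, which they call drought tolerant, both at the shoot apical meristem stage. Well-watered pots were held at 80% of field capacity and drought-stressed pots at 20%. Each of the 4 groups of genotype and treatment had 3 libraries, and the labels do not state that each library came from its own pot. The p-values below therefore measure the spread between libraries, which may be technical.

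Homeodomain-leucine zipper proteins are transcription factors found in plants. They bind DNA through the homeodomain and pair with each other through the leucine zipper that follows it. In Arabidopsis, the class I members ATHB7 and ATHB12 are known for being induced by water deficit and by abscisic acid, the hormone that accumulates in leaves as they dry. Work in chickpea has placed CAHDZ12 in the same class and has connected it to tolerance of drought and salt. In leaf tissue the RNA level of such a gene is an average over all cell types, so a change in the proportion of cells and a change of RNA per cell cannot be told apart.

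Between 8910704 and 12192098 reads per library were assigned to genes. The deposited sources did not give the same treatment for 4 of the 12 libraries. The authors' deposited DESeq2 tables hold a normalised column per library, and the whole reads recovered from every column equalled exactly 1 count file at all 27233 genes compared. In 8 libraries, 2 per group, the treatment of that count file was also the treatment of the column. In ICC283, the library filed as well-watered 3 stood in the tables as drought 3, and the library filed as drought 3 stood there as well-watered 3. In ICC8261, the library filed as well-watered 1 stood in the tables as drought 2, and the library filed as drought 2 stood there as well-watered 1. Values below lead with the 8 libraries on which both sources concur, and the drought and genotype values of CAHDZ12 are also given with all 12 under either set of treatments. For other genes the 12-library values are given in part, mainly those with the tables' treatments where they change a call. With the count files' treatments, 0 genes were called under drought in either genotype. No drought call of another gene below therefore held in that version. Of the leaf and meristem markers looked up by symbol, the floral meristem gene LFY was matched, with 0 to 5 reads per library, and it was too low to test. The leaf label itself was not checked with markers here.

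In ICC283, CAHDZ12 stood at 12.8 and 11.5 CPM (the CPM unit is reads of the gene scaled to a common library size, here with trimmed mean of M-values factors) in the well-watered libraries 1 and 2. In the drought libraries 1 and 2 of this genotype it stood at 151 and 177 CPM. The groups did not overlap, and the lower drought library exceeded the higher well-watered library 11.8-fold. For both genotypes the share of tested genes without overlap is not given here, so the separation is a description only. The means were 12.1 ± 0.936 CPM under watering and 164 ± 18.6 CPM under drought (SD, n = 2 each), a ratio of 13.5.

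In ICC8261, CAHDZ12 stood at 3.81 and 16.1 CPM in the well-watered libraries 2 and 3. It stood at 209 and 59.6 CPM in the drought libraries 1 and 3. The groups again did not overlap, but the gap between them was narrower than in ICC283, at 3.69-fold, and the libraries of each group lay further apart. The means were 9.97 ± 8.72 and 134 ± 106 CPM (SD, n = 2 each), a ratio of 13.5.

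Each of the 4 libraries of conflicting treatment lay near one group of its genotype and far from the other, and each lay near the group of the treatment that the tables give it. CAHDZ12 was chosen with its drought values known, so these positions are no separate evidence for either set of treatments. The library filed as ICC283 well-watered 3 had 133 CPM and that filed as ICC283 drought 3 had 14.98 CPM. In ICC8261, the library filed as well-watered 1 had 121 CPM and that filed as drought 2 had 6.72 CPM. Under the treatments of the tables, CAHDZ12 therefore ranged from 3.81 to 16.1 CPM, with a median of 12.1, in the 6 well-watered libraries, and from 59.6 to 209 CPM, with a median of 142, in the 6 drought libraries. Under the tables' treatments the gap between the groups was 8.90-fold in ICC283 and 3.69-fold in ICC8261. Under the treatments of the count files the groups of both genotypes overlapped. Counting error was small against these distances, since the lowest library held 51 reads of the gene (exact Poisson 95% interval 38.0 to 67.1) and the highest 2001 (1914 to 2091). These intervals cover counting error only.

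**Figure D1:**
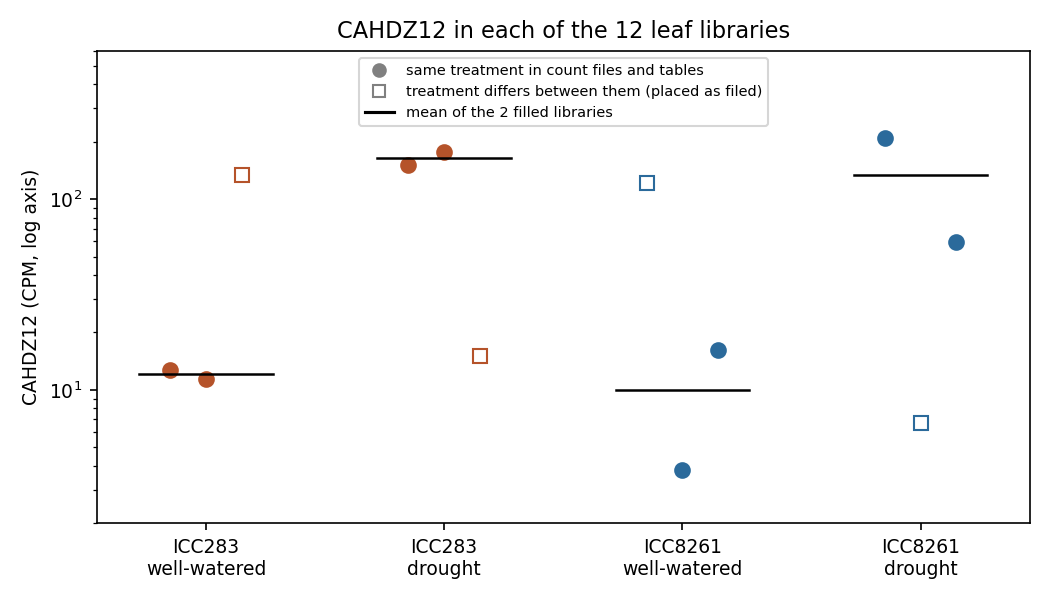
CAHDZ12 in CPM on a log axis, 1 point per library, placed in the group under which its count file was labelled. Filled circles are the 8 libraries whose treatment is undisputed, black lines their means (n = 2), and open squares the 4 libraries whose treatment differs in the tables. Filled circles lie at 3.81 to 16.1 CPM under watering and at 59.6 to 209 CPM under drought.

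The log2 fold change of CAHDZ12 fitted by edgeR, drought over well-watered, was 3.75 ± 0.87 in ICC283 (SE; 95% interval 1.56 to 5.94) and 3.74 ± 0.86 in ICC8261 (1.57 to 5.92) in the 8 libraries. With all 12 libraries and the tables' treatments it was 3.55 ± 0.53 and 3.85 ± 0.53. With all 12 libraries and the count files' treatments it was 1.14 ± 1.46 and 0.98 ± 1.46, intervals that include 0. The difference of the drought effects, ICC8261 minus ICC283, was −0.0040 on the log2 scale in the 8 libraries, with a 95% interval of −3.09 to 3.08. The 8 libraries therefore leave room for a difference of several-fold in either direction.

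**Figure D2:**
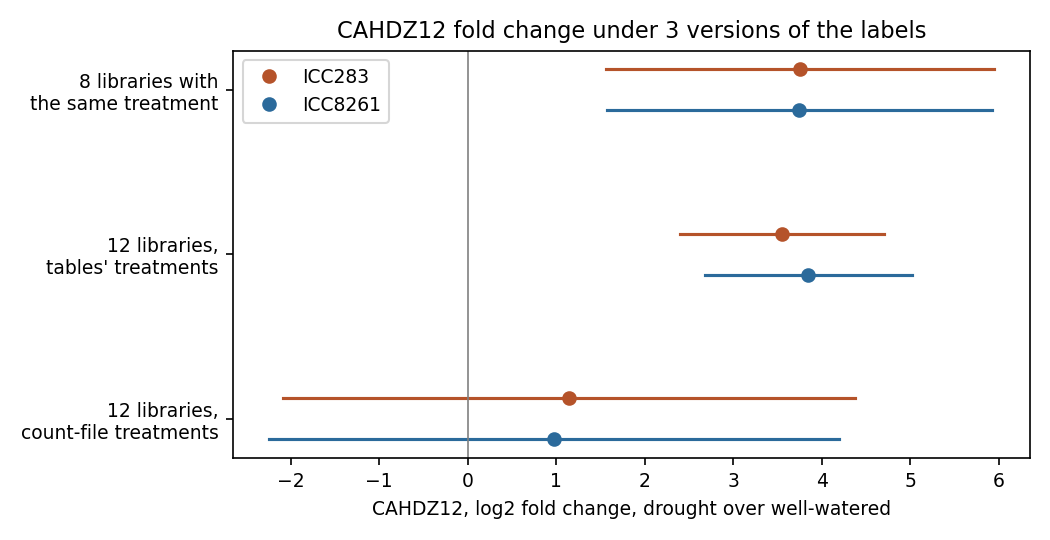
Fitted log2 fold change of CAHDZ12 under drought (points) with its 95% interval (lines), in ICC283 and ICC8261, for the 8 libraries and for all 12 under either set of treatments. The points lie between 3.55 and 3.85 in the upper 2 versions and at 1.14 and 0.98 in the lowest.

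Among the 18750 genes tested, the drought log2 fold change of CAHDZ12 ranked 63rd from the top in ICC283 and 45th in ICC8261. Ordered by the smaller of the fold changes in both genotypes, it ranked 20th. The median over all tested genes was −0.03 in ICC283 and −0.01 in ICC8261, and the 99th percentile was 2.67 and 2.27. With the tables' treatments the ranks were 46th, 35th and 24th of 18591, and with the count files' treatments 346th, 118th and 15th of 18592. These ranks use the values for which the gene was chosen.

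The authors' deposited DESeq2 tables give CAHDZ12 a log2 fold change of 3.46 (SE 0.21) in ICC283 and 2.42 (SE 0.50) in ICC8261. The authors' deposited edgeR tables give 3.48 and 3.80. Computed from the normalised columns in the authors' deposited tables, the log2 ratio of the drought mean to the well-watered mean was 3.54 and 3.86. In ICC283 the 3 values lay within 0.1 of each other, whereas in ICC8261 the DESeq2 value stood below the other two. The cause of that gap was not tested.

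The spread of CAHDZ12 between libraries of a group was wider in ICC8261 than in ICC283 in the 8 libraries and under the tables' treatments, but was wide in both genotypes under the treatments of the count files. With the tables' treatments, its highest library exceeded its lowest 1.31-fold and 1.33-fold in the ICC283 groups, and 4.24-fold and 3.51-fold in the ICC8261 groups, well-watered and drought in that order. The SD of log2(CPM + 1) was 0.18 and 0.20 in ICC283, beside a median over all tested genes of 0.28 and 0.20. In ICC8261 it was 0.93 and 0.90, beside a median of 0.17 and 0.19. CAHDZ12 stood at the 27.8th and 52.0th percentile of tested genes by this SD in ICC283, and at the 99.7th and 98.7th in ICC8261. In the 8 libraries these percentiles were 32.9, 60.5, 99.9 and 99.1, in the same order of groups. With the count files' treatments the SD was 1.94 and 1.95 in ICC283 and 2.35 and 2.41 in ICC8261, and the 4 groups stood between the 99.05th and the 99.92nd percentile. With 2 or 3 libraries per group the difference in spread was not tested.

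The model shares its spread over all groups, so the SE of the ICC283 value takes in the wider spread of ICC8261. Fitted alone, the 4 concurring libraries of ICC283 gave 3.75 ± 0.16 and those of ICC8261 3.75 ± 0.92. With the tables' treatments and each genotype fitted alone, the values were 3.54 ± 0.19 and 3.86 ± 0.78. These separate fits were added after the spread had been seen.

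**Figure D3:**
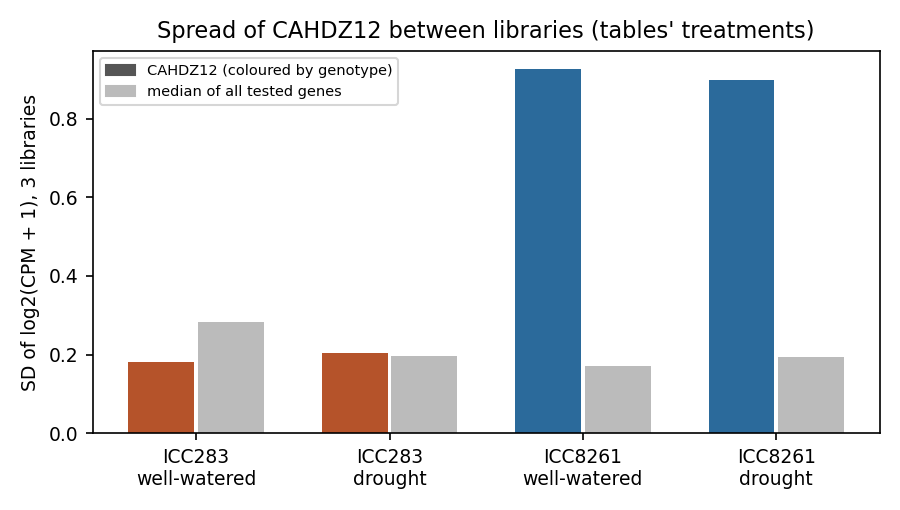
SD of log2(CPM + 1) between the 3 libraries of each group, grouped by the treatments of the authors' tables, for CAHDZ12 (coloured by genotype) and as the median over all tested genes (grey). CAHDZ12 is at 0.18 and 0.20 in ICC283 and at 0.93 and 0.90 in ICC8261, where the medians are 0.17 and 0.19.

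Measures taken over whole libraries moved with treatment as well. In the 8 libraries, alignments that were not unique made up 50.6% and 48.1% of counted lines in well-watered ICC283 and 53.4% and 53.5% under drought, and 46.7% and 44.1% against 52.8% and 50.5% in ICC8261. With all 12 libraries and the tables' treatments this share overlapped between treatments, at 50.6% against 50.5% for the nearest libraries of ICC283 and 50.01% against 49.3% in ICC8261. The gene with most reads took 6.46% and 6.34% of gene reads in the concurring well-watered libraries of ICC8261 and 13.8% and 12.3% under drought, and 16.6% and 12.9% against 18.4% and 17.8% in ICC283. That share is the RNA level of LOC101500093, the top gene in every library, and need not be technical. With all 12 libraries and the tables' treatments it overlapped in ICC283, at 16.6% well-watered against 15.4% under drought. In ICC8261 the nearest libraries were at 7.65% well-watered and 12.3% under drought. The part of these measures in the CAHDZ12 values was not tested. Within well-watered ICC8261, the library with 3.81 CPM and that with 16.1 CPM held 11327669 and 11252842 gene reads.

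The comparison between genotypes was not used to choose the gene and was tested. Earlier results of these data were known when the gene and the comparison were chosen, so the test may not be free of that choice. CAHDZ12 did not pass the test under either treatment. In well-watered leaves the log2 difference, ICC8261 minus ICC283, was −0.28 ± 0.89 (SE; 95% interval −2.51 to 1.95; edgeR adjusted p = 0.84). In drought-stressed leaves it was −0.29 ± 0.74 (−2.16 to 1.58; edgeR adjusted p = 0.83). Of all tested genes, 26.6% were called between the genotypes under watering and 18.9% under drought. With all 12 libraries the differences were −0.53 and −0.23 with the tables' treatments (edgeR adjusted p = 0.51 and 0.79) and −0.14 and −0.30 with those of the count files. In order of its mean, CAHDZ12 was lowest in well-watered ICC8261, then well-watered ICC283, then drought-stressed ICC8261, and highest in drought-stressed ICC283. The genotypes did not differ beyond their spread within either treatment, and the intervals include differences of several-fold.

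Genes were then ranked by how closely they followed CAHDZ12, using Pearson's r of log2(CPM + 1) over all 12 libraries without regard to treatment labels. The libraries share the treatments and the normalisation, so r is a description and carries no p. Over 18749 other tested genes the median r was 0.02, and 438 genes had an r of at least 0.9 while 242 had an r of −0.9 or below. The closest gene was LOC101498747, with an r of 0.988 and a rank correlation of 0.930. Its levels in ICC283 were 2.08 and 4.21 CPM in the concurring well-watered libraries and 48.9 and 52.5 CPM in the drought libraries. In ICC8261 it had 1.04 and 4.09 CPM under watering and 42.6 and 17.99 CPM under drought. The order of the drought libraries of ICC8261 was thus that of CAHDZ12, and so was the order of its well-watered ones. LOC101498505, LOC101501672, LOC101503872 and LOC101488329 followed, with r between 0.984 and 0.985. None of these 5 has a symbol in the reference table.

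These genes were picked for their r over the same 12 libraries, which include the variation within groups, so the values within groups are no separate evidence. After the group means under the tables' treatments had been subtracted, the r with CAHDZ12 was 0.859 for LOC101498747, 0.931 for LOC101498505, 0.961 for LOC101501672, 0.881 for LOC101503872 and 0.794 for LOC101488329. The median of this r was −0.02 over all 18749 genes, with a 99th percentile of 0.707, and 0.489 over the 438 genes with an overall r of at least 0.9. LOC101501672 stood at 36.4 and 73.6 CPM in the concurring well-watered libraries 2 and 3 of ICC8261 and at 252 and 148 CPM in the drought libraries 1 and 3. It was therefore lower in the library where CAHDZ12 was lower, under each treatment.

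Of the 299 other tested genes with a symbol, NAC4 was most like CAHDZ12, with an r of 0.975, a rank correlation of 0.958 and an r within groups of 0.854. NAC proteins are plant transcription factors, several of which are known to act in drought and abscisic acid responses. NAC4 had 15.8 and 14.5 CPM in the concurring well-watered libraries of ICC283 and 104 and 114 CPM in the drought libraries. In ICC8261 it had 9.56 and 22.0 CPM under watering and 98.3 and 32.3 CPM under drought. The library filed as ICC8261 well-watered 1 had 97.3 CPM of NAC4 and that filed as drought 2 had 7.72 CPM, on the same sides as for CAHDZ12. NAC4 was picked for following CAHDZ12 over these same libraries, so its sides and its drought change are no separate evidence. The adjusted p-values of NAC4 take no account of that choice. Its drought log2 fold change was 2.84 ± 0.62 in ICC283 (edgeR adjusted p = 0.015). In ICC8261 it was 2.04 ± 0.60 and did not pass the test (adjusted p = 0.072). With the tables' treatments the values were 2.40 and 2.51, the latter with an adjusted p of 0.0055. Both versions lay below the values of CAHDZ12, whereas with the count files' treatments NAC4 stood above it in ICC283, at 1.35 against 1.14.

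DHN, a dehydrin, came next among genes with a symbol, with an r of 0.966, and CapLEA-2 and CAPLEA-1, named as late embryogenesis abundant proteins, followed with 0.965 and 0.964. Their r within groups was lower than that of NAC4, at 0.560, 0.580 and 0.556. F-BOX1, UGT85X1, HP3 and map completed the 8, with r from 0.956 down to 0.934. At the other end, UGT85K8 had an r of −0.943, NAC66 of −0.941 and ARF4, an auxin response factor by its symbol, of −0.918. NAC66 was at 0.935 and 1.05 CPM in the concurring well-watered libraries of ICC283 and at 0.101 and 0.0888 CPM under drought, so its pattern rests on few reads.

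**Figure D4:**
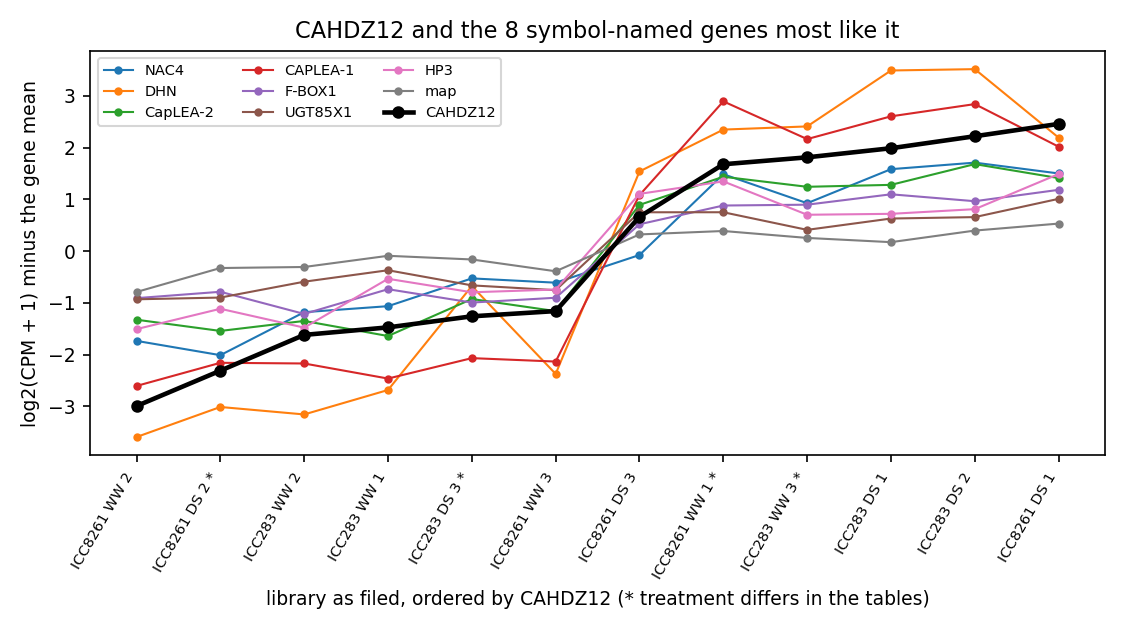
log2(CPM + 1) minus each gene's mean, in the 12 libraries ordered by CAHDZ12 (black), for CAHDZ12 and the 8 symbol-named genes with the highest r to it. Libraries carry their count-file names (WW well-watered, DS drought), and an asterisk marks the 4 whose treatment differs in the tables. The step lies between ICC8261 WW 3, at 16.1 CPM of CAHDZ12, and ICC8261 DS 3, at 59.6 CPM.

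Several of these genes encode proteins of the kind that protect cells as they lose water. A list of 5 such genes was held beside CAHDZ12: DHN, CAPLEA-1, CapLEA-2, P5CS, which makes the proline precursor, and CAGOLS1, named as a galactinol synthase. In ICC283 4 of the 5 rose and 0 fell under drought, where 17.1% of all tested genes rose and 21.1% fell. In ICC8261 3 of the 5 rose and 0 fell, where 9.09% rose and 6.37% fell. The list's median log2 fold change was 5.22 in ICC283 and 3.85 in ICC8261. The list was known from earlier results of these libraries, so its counts are not independent evidence of a direction. DHN, CAPLEA-1 and CapLEA-2 were also among the genes picked for their r with CAHDZ12. The adjusted p-values of the list's members take no account of these choices.

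DHN rose by 6.56 ± 0.51 in ICC283 (edgeR adjusted p = 2.65e-04) and by 4.92 ± 0.47 in ICC8261 (adjusted p = 0.0022). In ICC8261 it had 4.41 and 11.6 CPM under watering and 296 and 188 CPM under drought. These concurring libraries lay in the same order as for CAHDZ12. The library filed as ICC8261 well-watered 1, drought in the tables, broke that order. It was above both drought libraries for DHN, at 330.5 CPM, and between them for CAHDZ12, at 121 CPM. CAPLEA-1 rose by 7.40 ± 0.68 and 6.45 ± 0.67 (adjusted p = 2.56e-04 and 0.0018), from 0 to 5 reads in the well-watered libraries, which makes its size imprecise. CapLEA-2 rose by 5.22 ± 0.52 and 3.85 ± 0.44 (adjusted p = 1.5e-04 and 0.0013). With the tables' treatments these 3 were called in both genotypes too, but DHN and CapLEA-2 were smaller in ICC283, at 5.02 and 4.19. With the count files' treatments they were called in neither, at 2.09 for DHN and 1.28 for CapLEA-2 in ICC283. P5CS rose by 2.30 ± 0.57 in ICC283 (adjusted p = 0.021), a call that ended without the filter on low counts (adjusted p = 0.068) and without drought library 1 or 2 (adjusted p = 0.073 and 0.075). Leaving out 1 well-watered library moved this value to 1.58 (without library 1) or 3.68 (without library 2). In ICC8261 P5CS had a value of 0.94 ± 0.51 (adjusted p = 0.26), against 1.70 with the tables' treatments (adjusted p = 0.067), −0.43 with those of the count files and 0.40 without drought library 3. CAGOLS1 did not pass the test in either genotype, at −0.67 and −0.11, and its r with CAHDZ12 was −0.183.

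**Figure D5:**
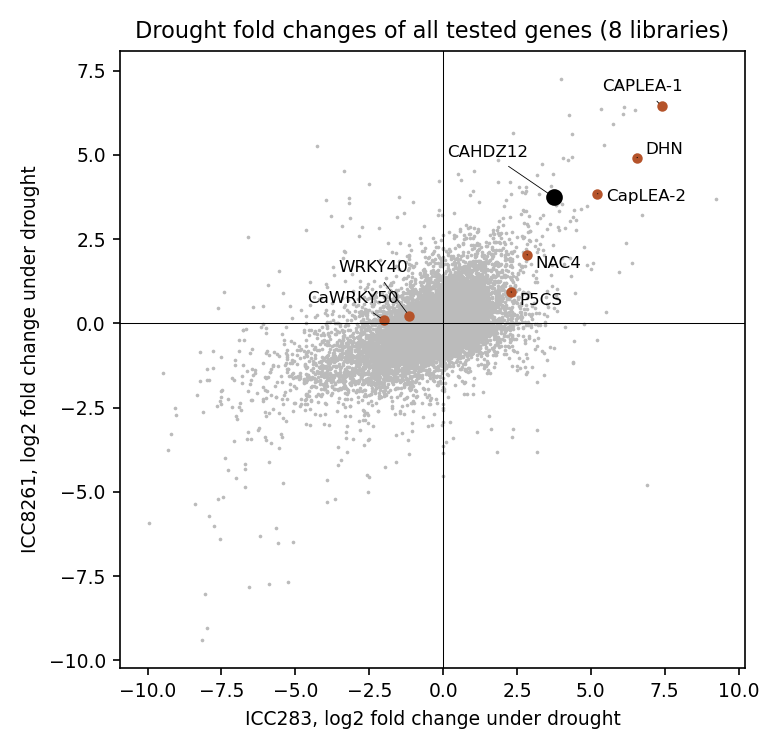
Drought log2 fold change in ICC283 (x axis) against ICC8261 (y axis) for all 18750 genes tested in the 8 libraries, with CAHDZ12 (black), 4 protectant genes, NAC4 and both WRKY genes named. CAHDZ12 lies at 3.75 and 3.74, above NAC4 in both genotypes and below DHN and CAPLEA-1.

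WRKY proteins are a plant transcription factor family, and in chickpea WRKY70 has been described as a regulator of CAHDZ12. No feature was matched to that symbol, so WRKY70 has no value here. The WRKY genes matched by symbol were CaWRKY50 and WRKY40, and neither followed CAHDZ12 over the 12 libraries, with r of −0.386 and −0.081. CaWRKY50 fell by 2.00 ± 0.31 in ICC283 (edgeR adjusted p = 0.0020) and had a value of 0.10 ± 0.30 in ICC8261 (adjusted p = 0.86). WRKY40 fell by 1.15 ± 0.18 in ICC283 (adjusted p = 0.0013), a call that ended with the tables' treatments (adjusted p = 0.077), and had a value of 0.23 ± 0.19 in ICC8261 (adjusted p = 0.43). Within well-watered ICC283, CaWRKY50 was at 106 and 93.4 CPM in libraries 1 and 2 but at 23.5 CPM in the library that only the tables call well-watered.

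CAHDZ12 was the only gene matched by the homeodomain-leucine zipper symbols that were searched. No symbol was matched for the abscisic acid genes looked up. A wider list of 107 tested transcription factor genes, added after the gene names had been seen, was therefore held beside it. This list was built from symbols, mostly of NAC, auxin response factor and heat shock factor genes. Transcription factor genes without a symbol are missing from it. In ICC283 15 of them rose and 29 fell, with a median log2 fold change of −0.33, and in ICC8261 10 rose and 8 fell, with a median of 0.09. In ICC283 these are 14.0% and 27.1% of the list beside 17.1% and 21.1% of all tested genes, and in ICC8261 9.35% and 7.48% beside 9.09% and 6.37%, shares near the background. No member had a larger drought log2 fold change than CAHDZ12 in either genotype, in the 8 libraries or with the tables' treatments. With the count files' treatments HSFB4B at 2.74 and NAC4 at 1.35 stood above CAHDZ12 at 1.14 in ICC283, and NAC10 at 1.33 above CAHDZ12 at 0.98 in ICC8261. This order uses the values for which CAHDZ12 was chosen. The largest in the 8 libraries were, in ICC283, NAC4 at 2.84 and NAC52 at 2.37, and in ICC8261 NAC05 at 2.04 and NAC4 at 2.04. Besides NAC4, the heat shock factor gene HSFC1 was the other member with an r of at least 0.9 to CAHDZ12, at 0.904.

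The genes near CAHDZ12 in the reference order that had counts did not share its size of change. LOC101510201, a protein-coding gene, ranged from 10.3 to 19.1 CPM over the 12 libraries, with an r of 0.635 and log2 fold changes of 0.39 ± 0.21 and 0.46 ± 0.21 (edgeR adjusted p = 0.17 in both genotypes). On the other side lie LOC101509677 and LOC101509355, both annotated as long non-coding RNA, with r of −0.254 and 0.277. LOC101509677 fell by 1.15 ± 0.29 in ICC283 (adjusted p = 0.013), where the tables' treatments gave −0.45 (adjusted p = 0.35), and had a value of −0.59 ± 0.29 in ICC8261 (adjusted p = 0.20). Its call in ICC283 also ended without well-watered library 1 (adjusted p = 0.076) or drought library 2 (adjusted p = 0.094). LOC101509355 fell by 0.69 ± 0.20 in ICC283 (adjusted p = 0.022) and rose by 1.41 ± 0.21 in ICC8261 (adjusted p = 0.0035). With the tables' treatments these were −0.56 (adjusted p = 0.15) and 0.93 (adjusted p = 0.048). The call in ICC283 ended without well-watered library 1, drought library 1 or drought library 2 (adjusted p = 0.17, 0.12 and 0.087), and that in ICC8261 without well-watered library 2 (adjusted p = 0.056). LOC140918860, the remaining neighbour, lies between LOC101510201 and CAHDZ12 in that order. It is not among the counted features, so the adjacent gene on that side has no value here. None of the 4 overlaps CAHDZ12 in the reference table.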

How the data were processed

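Leaf RNA of 12 libraries was sequenced, and the authors deposited whole-number counts per gene for each. Per the submitters' processing notes, the tools named were HTSeq, DESeq2, edgeR, Trimmomatic, Cufflinks 2.0.2 and TopHat2 2.1.1. No source used here names the genome build, the annotation or the strand setting, so reads of overlapping antisense genes cannot be told apart and no coordinates are printed. HTSeq's summary lines stayed out of library sizes: 44.1% to 53.5% of counted lines were not unique and 16.6% to 21.4% fell on no feature. The authors' deposited tables hold log2 fold changes, p-values, a test statistic (a score, not used) and a normalised signal per library. That signal was in whole multiples of 1 step (tolerance 0.02) for 100% of values, which gave whole reads.

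CAHDZ12, the lists and the comparisons were chosen with earlier results of these data known. Counts of the 8 libraries of concurring treatment were fitted in R 4.3.3 with edgeR 4.0.16. Genes passed filterByExpr (minimum count 10, minimum total 15), scaling was by TMM, and glmQLFit was robust with 4 group means. Tests were two-sided by glmQLFTest, adjusted by Benjamini-Hochberg over 18750 genes and called at 0.05. Alternatives were both sets of labels over 12 libraries, DESeq2 1.42.0, its size factors, no low-count filter, a replicate block and leaving out each library. The script was tested on simulated data. Likeness used log2(CPM + 1). The named genes are, by rule, the 5 of any name and the 8 with a symbol that have the highest r, the 3 with a symbol that have the lowest, 2 neighbours on each side, and list members. Of the features, 24445 (89.8%) matched the RefSeq table for Cicar.CDCFrontier_v2.0, used for symbols and neighbours only.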

Additional observations from a re-analysis of the deposited data

Results flagged for a closer look

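In 3 genes named beside CAHDZ12, the drought effect differed between the genotypes by the interaction test of edgeR in the 8 libraries. The share of all tested genes called by this test is not given here, so that number has no background. Members of the wider transcription factor list, such as NAC43 and NAC6, were called by it too. For CaWRKY50 the difference, ICC8261 minus ICC283, was 2.101 ± 0.43 on the log2 scale (edgeR adjusted p = 0.022), and with the tables' treatments 2.04 (adjusted p = 0.14). For WRKY40 it was 1.38 ± 0.26 (edgeR adjusted p = 0.012), and with the tables' treatments 1.63 (adjusted p = 0.18). For the neighbouring long non-coding RNA gene LOC101509355 it was 2.095 ± 0.29 (edgeR adjusted p = 0.0044), and with the tables' treatments 1.496 (adjusted p = 0.075). LOC101509355 was higher under drought in ICC8261 and lower in ICC283. The call for CaWRKY50 ended without any 1 of the 4 ICC283 libraries or ICC8261 drought 1 (adjusted p from 0.050 to 0.095). The call for WRKY40 ended without either drought library of ICC283 or either well-watered library of ICC8261 (adjusted p from 0.052 to 0.060). None of these 3 calls held with all 12 libraries under either set of treatments.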

How the results depend on the processing

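The drought log2 fold change of CAHDZ12 fell to 1.14 in ICC283 and 0.98 in ICC8261 with the count files' treatments. Leaving out 1 library moved the ICC8261 value between 2.58 (without drought 1) and 5.12 (without well-watered 3) and the difference of the drought effects between −1.17 and 1.35. The genotype difference ran from −1.62 to 0.46 under watering and from −1.46 to 0.37 under drought, with a change of sign without ICC8261 well-watered 2 and without ICC8261 drought 3, and passed the test in none of these fits. The number of genes called under drought in ICC283, 7167, became 0 with the count files' treatments (1841 at an unadjusted p under 0.05; DESeq2 was not run on that version), 4523 with the genotype fitted alone under the tables' treatments, and 3961 to 7539 on leaving out 1 library. In ICC8261, 2898 became 0 (386 unadjusted), 5242 and 455 to 3294 in the same order. Between genotypes, 4992 called genes under watering became 98 with the count files' treatments, 2356 with the tables' and 1434 to 5594 on leaving out 1 library, and 3551 under drought became 113, 1913 and 862 to 3793. Whether replicate numbers pair the libraries was not settled, and the main model left them unpaired. With 2 libraries per group the deviations from the group mean mirror each other, so the 8 libraries cannot show pairing. Deviations of same-numbered libraries had r from −0.08 to 0.26 with the tables' treatments. With those of the count files r ran from −0.60 to 0.70. With a replicate block the values of CAHDZ12 were 3.82 and 3.31, their difference −0.50, and the genotype differences −0.02 and −0.52, while the called genes numbered 1800 in ICC8261 and 3182 between genotypes under watering. With the count files' treatments, ICC8261 values changed sign for CAPLEA-1 (−0.29), CAGOLS1 (0.0165), P5CS (−0.43), CaWRKY50 (−0.0565) and WRKY40 (−0.26). Leaving out 1 library changed it for CAGOLS1 (−0.30 to 0.0648), CaWRKY50 (−0.33 to 0.66) and WRKY40 (−0.10 to 0.51), which passed the test in ICC8261 in none of these fits. By rank correlation, 0 of the 5 genes most like CAHDZ12 and 5 of the 8 with a symbol stayed among the closest. Counts for the homeodomain-leucine zipper family were not run, because only CAHDZ12 was matched. For CAHDZ12, with 2 libraries per group, differences between genotypes of several-fold cannot be resolved.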
